A study of Mus musculus with 6 samples.

Results

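A group of 10 genes for immunoglobulin-domain adhesion molecules was followed between cranial neural crest and cranial mesoderm: Ncam1, Nrcam, L1cam, Chl1, Nfasc, Cntn1, Cntn2, Alcam, Mcam and Cadm1. They were taken by symbol from the array's probe-to-gene table, in which they are 10 of 19057 genes and hold 29 probes. RNA came from GFP-positive cells of mouse heads, sorted at embryonic day 9.5, on a mixed background that the labels give as C57Bl/6 x 129 x ARC/s. The 3 crest samples carried Wnt1-Cre and Z/EG, and the 3 mesoderm samples carried Mesp1-Cre and Z/EG. Z/EG is a reporter that turns on GFP wherever Cre has acted, in the cell and in all its descendants. Wnt1-Cre acts in the dorsal neural tube and midbrain as well as in emigrating crest. Mesp1-Cre acts in early mesoderm, whose descendants include vessels and blood besides head mesenchyme and muscle. Each sort is thus a mixture of cell types, and the number of embryos pooled per sample is not given in the sources used here.

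These proteins stand on the cell surface and bind to each other, to the same protein on the next cell or to matrix, through chains of immunoglobulin-like and often fibronectin-like domains. L1cam, Chl1, Nrcam and Nfasc form the L1 family, which is tied to the spectrin skeleton by ankyrins and is known for axon growth and bundling. Cntn1 and Cntn2 are contactins, held to the membrane by a lipid anchor. Ncam1 is the founding neural cell adhesion molecule and the main carrier of polysialic acid. Alcam and Mcam occur on neural, endothelial and mesenchymal cells, and Cadm1 is a nectin-like molecule of synapses and epithelia.

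Of the 10 genes, 3 passed the test, in both directions. Nrcam was higher in crest, Alcam was higher in mesoderm, and Mcam was slightly higher in mesoderm. Cntn1, Cntn2 and Cadm1 had higher means in crest without passing the test, Ncam1 and Nfasc differed by less than the spread between arrays, and L1cam and Chl1 were detected on no array. A gene was tested when at least 1 of its probes was detected (detection p under 0.05) on 3 or more of the 6 arrays, which held for 8 of the 10. By limma's test, with Benjamini-Hochberg adjustment over all 9214 genes tested and a threshold of 0.05, 1 of the 8 was higher in crest and 2 were higher in mesoderm. Of all genes tested, 18.5% passed in either direction, 8.31% toward crest and 10.1% toward mesoderm. Under median scaling in place of quantile normalization the members' split was 1 and 1. The median log2 difference of the 8, mesoderm minus crest, was -0.57, against -0.07 over all genes. No crest array overlapped a mesoderm array in 5 of the 8, 3 of them higher in crest and 2 higher in mesoderm. Of all genes tested, 37.2% showed no overlap, 19.6% with crest and 17.6% with mesoderm on top.

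**Figure D1:**
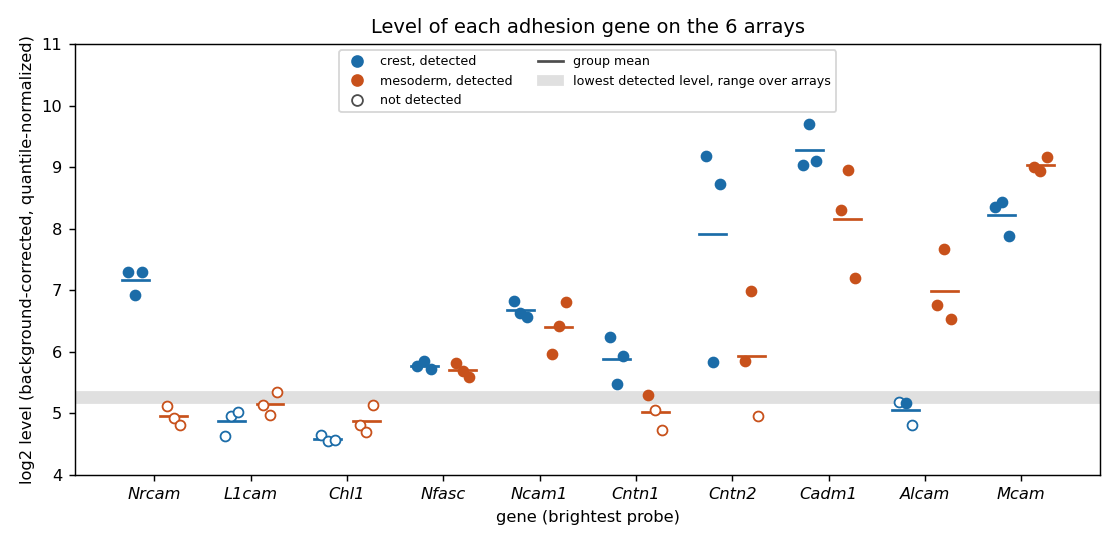
Log2 level of the brightest probe of each gene (y axis) on the 3 crest and 3 mesoderm arrays, with filled points for arrays on which it was detected, open points for those on which it was not, bars for group means and a grey band for the lowest detected level, which runs from 5.17 to 5.35 over the arrays. Nrcam lies above the band on all crest arrays and below it on all mesoderm arrays, and Alcam lies above it on the mesoderm arrays alone. Heights of different genes are not comparable, since each probe has its own response.

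The promoters of the 3 genes that passed the test are shown because they are where transcription of these genes starts. Each is a window of 300 bases from RefSeq (GRCm38.p6), 250 before and 50 after an annotated start, written 5′ to 3′ along the gene, with capitals for the E-box, CANNTG, the core bound by basic helix-loop-helix factors such as TWIST1, which the series title names.
Nrcam promoter, chr12:44328635-44328934, plus strand: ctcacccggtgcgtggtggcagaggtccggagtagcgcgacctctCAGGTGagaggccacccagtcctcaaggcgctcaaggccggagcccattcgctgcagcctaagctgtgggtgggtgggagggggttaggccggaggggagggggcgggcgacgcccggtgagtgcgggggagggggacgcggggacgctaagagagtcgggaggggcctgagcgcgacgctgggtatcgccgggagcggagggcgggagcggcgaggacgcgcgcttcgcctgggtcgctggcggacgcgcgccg
Alcam promoter, chr16:52453032-52453331, minus strand: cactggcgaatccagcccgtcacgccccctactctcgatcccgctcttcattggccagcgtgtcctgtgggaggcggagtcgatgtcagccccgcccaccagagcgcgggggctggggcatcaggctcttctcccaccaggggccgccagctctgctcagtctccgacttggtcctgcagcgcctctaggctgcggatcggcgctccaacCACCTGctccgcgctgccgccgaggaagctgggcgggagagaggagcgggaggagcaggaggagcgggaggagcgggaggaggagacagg
Mcam promoter, chr9:44134408-44134707, plus strand: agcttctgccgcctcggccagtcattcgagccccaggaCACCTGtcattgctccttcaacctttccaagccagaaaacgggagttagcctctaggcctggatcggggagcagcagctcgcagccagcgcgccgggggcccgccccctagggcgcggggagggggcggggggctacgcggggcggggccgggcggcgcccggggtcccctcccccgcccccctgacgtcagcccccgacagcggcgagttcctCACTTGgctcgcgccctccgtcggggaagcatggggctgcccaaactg
An E-box stood in 72.3% of all 32851 such windows, counting both strands, so that holding one sets no promoter apart. All 3 windows held its form CACCTG, read on the other strand as CAGGTG, which 20.2% of all windows held. Neither CATCTG nor its other strand CAGATG, an E-box form reported for TWIST1, stood in any of the 3, against 17.2% of all windows. The 3 genes differ in direction, and both forms were picked after the sequences had been seen. Windows were found for 8 of the 10 genes, Ncam1 and Cadm1 being the others, and 3 of their 12 windows held CACCTG, those shown. CATCTG, read as CAGATG, stood in 2 of the 12, both of L1cam. The 3 windows were rich in CpG, with 37 in Nrcam, 25 in Alcam and 29 in Mcam against a median of 7 over all windows. This was not particular to them, since the windows of L1cam, a gene detected on no array, held 25 and 22. Those of Chl1 and Cntn2 held 13 each, those of Cntn1 4 to 9 and those of Nfasc 3 and 7.

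Nrcam, a cell adhesion molecule of the L1 family on growing axons and floor plate, gave the clearest difference. Its log2 level was 7.29, 6.92 and 7.29 on the crest arrays, in the order of replicates 1, 2 and 3, and 5.13, 4.92 and 4.80 on the mesoderm arrays in the same order, which is kept below. The crest arrays lay close together and far above the mesoderm arrays, on none of which the probe was detected. The difference was -2.22 ± 0.22 on the log2 scale (SE, 3 arrays per group, limma adjusted p = 0.000214), with a 95% interval of -2.73 to -1.71. Set against the lowest detected level of each mesoderm array, the crest mean of Nrcam was 3.68-fold higher. This bound covers the undetected mesoderm values only, not the spread between arrays, and depends on the background correction. Nrcam reached the test only through its crest arrays, so passing the filter already required high values there. The call held with each array left out (limma adjusted p up to 0.00279). The detection filter was not redone there, so a left-out crest array still counted toward the 3 detected arrays that Nrcam needed.

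No other Nrcam probe gave that difference. Of its 4 probes 2 were detected on no array. The remaining one, ILMN_1240336, lay near background at 5.26, 5.32 and 5.61 in crest and at 5.37, 5.36 and 5.28 in mesoderm. Its difference was -0.06 (95% interval -0.55 to 0.43), and the groups overlapped. The detection p-values on its line belong to a neighbouring probe with no gene name, so its signal may not be that of Nrcam. The Nrcam result rests on probe ILMN_1245780, whose p-values go with its signal, and the mean of both probes gave -1.14. Without background correction the brighter probe itself gave -0.97, past the threshold as well.

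Of the other members of the L1 family, Nfasc did not pass the test and L1cam and Chl1 were not detected. Nfasc, neurofascin, which gathers sodium channels at the initial segment and node of axons, stood at 5.76, 5.84 and 5.71 in crest and at 5.82, 5.69 and 5.59 in mesoderm. These values lay within 0.25 of each other, a little above the lowest detected level, and the groups overlapped. The difference was -0.07 ± 0.20 (SE, 3 arrays per group, limma adjusted p = 0.851), and its 95% interval, -0.53 to 0.39, leaves room for a modest change either way. A further Nfasc probe gave -0.12, and 4 of its 6 probes were not detected on any array. L1cam, the founding member, has 1 probe, whose raw signal was 115, 140 and 117 intensity units in crest and 107, 144 and 123 in mesoderm. Chl1, close homolog of L1, has 4 probes, with signals between 92.8 and 131 units. None of these 5 probes was detected on any array, where median signals over all probes were 99.8 to 131 units. For L1cam and Chl1 a difference was thus not detectable on these arrays.

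The contactins had higher means in crest. Cntn1, a lipid-anchored partner of neurofascin at axon junctions, stood at 6.24, 5.48 and 5.92 in crest and at 5.29, 5.05 and 4.72 in mesoderm. Every crest array lay above every mesoderm array, but the lowest crest value was only just above the highest mesoderm value, and Cntn1 was detected on 1 of the 3 mesoderm arrays. The difference was -0.86 ± 0.27 (SE, 3 arrays per group, limma adjusted p = 0.059). Without crest replicate 2 it was -1.06 and passed (adjusted p = 0.0409), and it did not pass with any other array left out, falling to -0.68 without crest replicate 1 (adjusted p = 0.176). Without background correction it was -0.32 (adjusted p = 0.157).

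Cntn2, the contactin of newly born neurons and their first axons, had the widest spread within each group among the 8 tested genes. Its log2 level was 9.19, 5.83 and 8.72 in crest and 5.85, 6.98 and 4.95 in mesoderm. Crest replicates 1 and 3 stood high, and crest replicate 2 fell among the mesoderm arrays. The difference of -1.99 ± 0.84 (SE, 3 arrays per group, limma adjusted p = 0.141) did not pass, and its 95% interval ran from -3.90 to -0.07. Without crest replicate 2 the difference was -3.03 (adjusted p = 0.0125). It did not pass with any other array left out, was -1.35 without crest replicate 1 (adjusted p = 0.337), and was -1.23 without background correction. The value comes from 1 of 4 probes, the other 3 being detected on no array.

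Markers of young neurons and of red cells differed among the crest arrays too. The summed level of 11 such genes, Dcx among them, was 1652, 840 and 1761 in crest and 532, 785 and 538 in mesoderm, in normalized linear units. Isl1, which also marks head mesoderm, made up much of the mesoderm sums, and without it, a choice made after seeing the data, they were 1480, 745 and 1607 in crest and 345, 350 and 272 in mesoderm. Crest replicate 2 was thus below the other crest arrays but above every mesoderm array, unlike its Cntn2 level. Of the 11, 6 were tested and 5 were higher in crest, toward which 8.31% of all genes passed. The groups did not overlap in any of the 5. These had already passed the test, so the 19.6% of all genes without overlap and with crest on top is not a like share. Dcx, Phox2a and Ina were detected on no mesoderm array, so they reached the test only through crest. Stmn2 stood at 8.08 on crest replicate 2 and at most at 6.55 in mesoderm. Neurod1 and Neurog1 were detected on no array. The sum of 9 red cell markers was 4725, 261 and 2637 in crest, lowest on replicate 2 as for Cntn2, but 20012, 15268 and 25000 in mesoderm, where Cntn2 was mostly low. In such bulk sorts fewer cells of a type and less RNA per cell cannot be told apart, and the part of either cell type in the Cntn2 values was not tested.

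**Figure D2:**
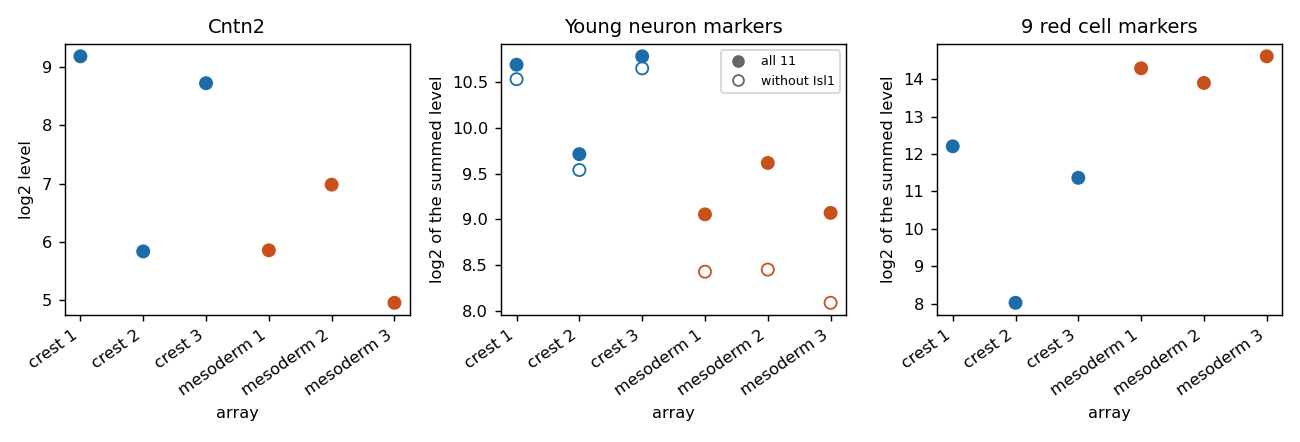
Log2 level of Cntn2 (left), log2 of the summed level of young neuron markers (middle, filled for all 11 and open without Isl1) and of 9 red cell markers (right) on each array, crest in blue and mesoderm in orange. Crest replicate 2, at 5.83 for Cntn2, lies among the mesoderm arrays on the left, above them in the middle (745 against at most 350 without Isl1) and below all other arrays on the right.

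Ncam1 was detected in both sorts and did not pass the test. It stood at 6.83, 6.63 and 6.56 in crest and at 5.96, 6.42 and 6.81 in mesoderm. It was detected on all 6 arrays, and the mesoderm values spread over a wider range that overlapped crest. The difference was -0.27 ± 0.26 (SE, 3 arrays per group, limma adjusted p = 0.529), with a 95% interval of -0.87 to 0.33. The 2 other detected probes of Ncam1 gave -0.32 and -0.05, also with overlapping groups. The deposited table has 3 adjacent lines of Ncam1 probes whose detection p-values are exchanged among them, so a value there belongs to the gene and not to a known probe.

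Cadm1, which joins cells at synapses and epithelial contacts, was well above background in both sorts. Its log2 level was 9.03, 9.70 and 9.10 in crest and 8.31, 8.95 and 7.20 in mesoderm. The groups did not overlap, although mesoderm replicate 2 came close to the lowest crest array and mesoderm replicate 3 lay far below. The difference was -1.12 ± 0.42 (SE, 3 arrays per group, limma adjusted p = 0.104). Without mesoderm replicate 2 it was -1.52 and passed (adjusted p = 0.0326), and it did not pass with any other array left out, at -0.65 without mesoderm replicate 3 (adjusted p = 0.2).

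Alcam, which binds itself and the lymphocyte receptor CD6 and occurs on migrating and outgrowing cells, was higher in mesoderm. Its log2 level was 5.19, 5.17 and 4.81 in crest and 6.76, 7.67 and 6.53 in mesoderm. The crest values lay at the detection limit, with 1 of 3 arrays detected, and all mesoderm arrays were more than 1 unit above them. The difference was 1.93 ± 0.32 (SE, 3 arrays per group, limma adjusted p = 0.0036), with a 95% interval of 1.21 to 2.66. It kept its call with each array left out (1.59 to 2.16, adjusted p up to 0.0243). The size rests partly on crest values near background and was 0.84 without background correction, still past the threshold. Alcam has 1 probe on the array.

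Mcam, an adhesion molecule of vessel walls first known from melanoma, was detected on every array of both sorts. It stood at 8.35, 8.43 and 7.88 in crest and at 9.0, 8.94 and 9.16 in mesoderm. The mesoderm arrays were close together and all above the crest arrays. The difference was 0.82 ± 0.23 (SE, 3 arrays per group, limma adjusted p = 0.041), or 1.76-fold. Both other probes of Mcam went the same way, at 0.85 and 1.06. Neither passed when every kept probe was tested (limma adjusted p = 0.0984 and 0.0714), a test in which 16.2% of probes passed. In the probe at 1.06 the groups overlapped, with crest replicate 1 at 7.82 above mesoderm replicate 2 at 7.77. The call on Mcam was lost with any 1 array left out (adjusted p 0.0519 to 0.17) and under median scaling, where the median difference of all genes was -0.30 and Mcam differed by 0.47 (adjusted p = 0.426).

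**Figure D3:**
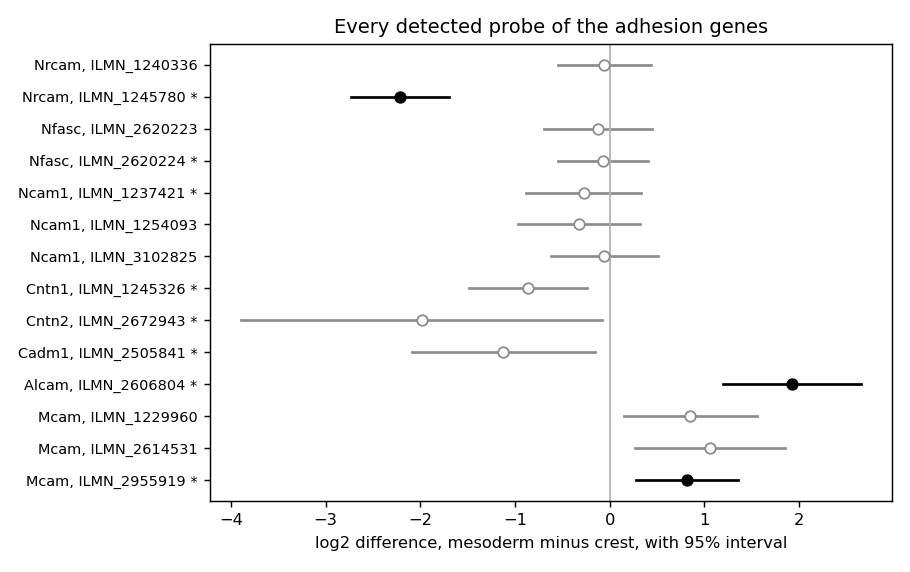
Log2 difference, mesoderm minus crest, with its 95% interval (x axis) for each of the 14 detected probes of the 8 tested genes, filled where the adjusted p over all kept probes was under 0.05. An asterisk marks the brightest probe of a gene. The 3 probes of Mcam agree in direction, from 0.82 to 1.06, while the probes of Nrcam differ, at -2.22 and -0.06.

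Vascular markers were higher in mesoderm, as Alcam and Mcam were. Of 12 endothelial marker genes 11 were tested and 10 were higher in mesoderm. Their summed level was 608 to 799 in crest and 28518 to 37359 in mesoderm. Among the mesoderm arrays it was lowest on replicate 2, where Alcam was highest and Mcam lowest. Of 10 head mesoderm markers 8 were tested and 6 were higher in mesoderm (584 to 777 against 3242 to 4351), while Lhx2 and Myf5 were detected on no array. Markers of the neural tube and midbrain were higher in crest, as Nrcam was. Of these 8 of 8 tested passed, or 6 to 7 with 1 array left out. Their sum was 8387, 12996 and 10736 on the crest arrays, highest on replicate 2, where Nrcam was lowest. In mesoderm it was 1388 to 1743. Pax3, Pax6, Pax7, Sox1 and Sox3 were detected on no array. Of 7 migratory crest markers tested 4 passed toward crest, and their sum over 9 genes was 10809 to 15563 against 3524 to 4831, with Erbb3 and Foxd3 detected on no array. Blood was on the mesoderm side. Of white cell and platelet markers 7 of 7 tested were higher there and 0 of 9 were detected on a crest array. All 7 thus reached the test only through their mesoderm arrays, so passing the filter already required high values there. Of red cell markers 7 of 8 were higher in mesoderm. This fell to 3 without mesoderm replicate 1 or 3 and to 4 without mesoderm replicate 2 or crest replicate 3. Of 7 tested markers of crest-derived arch mesenchyme 4 were higher in crest and 1 in mesoderm, while the sum over 10 genes was lower in crest (3004 to 3300 against 3948 to 3973). The 1 toward mesoderm was a call lost on leaving out mesoderm replicate 1 or 3 or crest replicate 3. None of the 5 tested epithelial markers passed (limma). At an unadjusted p under 0.05 by limma, for which no share of all genes is given, 2 of them were higher in crest. Detected in mesoderm only were also 4 of the tested endothelial markers, 2 of head mesoderm and 3 of red cells. Detected in crest only were 1 of neural tube and midbrain, 1 of migratory crest and 3 of arch mesenchyme. Those too reached the test through 1 group, as did 465 of all 9214 genes tested. The part of each cell type in the levels of the adhesion genes was not tested.

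Related genes were counted in 4 lists, to be read beside the 8.31% of all genes that passed toward crest and the 10.1% toward mesoderm, 766 and 935 genes, a balance that turned to 725 and 596 under median scaling. Of 32 other neural immunoglobulin adhesion genes on the array 10 were tested, of which 2 passed toward crest and 0 toward mesoderm by limma, with a median of -0.29. At an unadjusted p under 0.05 by limma, a threshold for which no share of all genes is given, the counts were 4 and 0. Sdk2 and Dcc, among these 4, were detected on no mesoderm array and had fold bounds of 1.29 and 1.27. Igsf9, related to the fly protein turtle, stood at 11.38, 10.82 and 11.35 in crest and 8.56, 9.28 and 9.13 in mesoderm, a difference of -2.19 (limma adjusted p = 0.000755). Cdon, a co-receptor of hedgehog ligands, differed by -2.04 (adjusted p = 0.00117). Of the 32, 13 were detected on no array, among them Ncam2, Dscam, Opcml and Ntm. Of 12 tested nectins, junctional adhesion molecules and vascular immunoglobulin genes 8 were higher in mesoderm and 0 in crest, with a median of 1.34. Under median scaling 5 were. At an unadjusted p under 0.05 by limma, again with no share of all genes given, the counts were 9 and 0. The 3 with the largest fitted differences were the endothelial genes Esam, Icam2 and Pecam1, which also stand among the endothelial markers. Esam differed by 7.43, against crest values detected on 1 of 3 arrays. F11r, Icam2 and Pecam1 were detected on no crest array, so these 3 of the 8 reached the test only through mesoderm. Icam2 and Pecam1 had fold bounds of 84.2 and 10.1 toward mesoderm. On the log2 scale the bound for Pecam1, 3.34, lies below the fitted differences of Icam1, 3.38, and F11r, 3.37. The order of these is thus not settled. The calls on Cd47, Nectin2 and Clmp, the 3 smallest of the 8, were each lost with at least 1 array left out (adjusted p up to 0.0731).

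Partners inside the cell went both ways. Among 20 that were tested, 4 passed toward crest and 2 toward mesoderm, with a median of 0.25. Mpp3, a membrane scaffold of the guanylate kinase family that binds Cadm proteins, differed by -3.28 (limma adjusted p = 0.00017). Dcx, a microtubule protein of migrating neurons that binds neurofascin, was detected on no mesoderm array and had a fold bound of 3.39 toward crest. Its fitted difference was -2.27, with a 95% interval of -3.13 to -1.42. Epb41l5, a band 4.1 protein of epithelial polarity, differed by -1.62. Toward mesoderm, the skeleton linkers Epb41l3 and Epb41l2 differed by 1.30 and 0.79. Both calls were lost under median scaling (limma adjusted p = 0.165 and 0.316) and without crest replicate 1 or 3. The call on Epb41l2 was also lost without crest replicate 2 or mesoderm replicate 1 or 3 (adjusted p up to 0.157 over all arrays left out). Ank3 and Ank1, ankyrins of the kind that hold the L1 family, did not pass, at 0.64 and 0.00.

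Among 13 tested membrane partners and ligands 3 passed toward crest and 2 toward mesoderm, with a median of -0.19. Cntnap2, the contactin-associated protein that pairs with Cntn2 on axons, was at 7.55, 8.93 and 7.73 in crest and 4.68, 5.26 and 4.58 in mesoderm, a difference of -3.23 (limma adjusted p = 0.000536). Its highest crest array was replicate 2, where Cntn2 was lowest. Ptprf, a receptor phosphatase, differed by -2.0, and Agrn, a matrix proteoglycan, by -0.73. The latter call was lost with any 1 array left out (adjusted p up to 0.146). Toward mesoderm Nrp1, a semaphorin and VEGF receptor that pairs with L1cam, differed by 1.71 and the prion protein gene Prnp by 0.90, the second call being lost under median scaling (adjusted p = 0.331) and without any 1 crest array or mesoderm replicate 3. Fgfr1, which Ncam1 and L1cam engage, and Ptprz1, a receptor for contactins, were detected on no array.

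**Figure D4:**
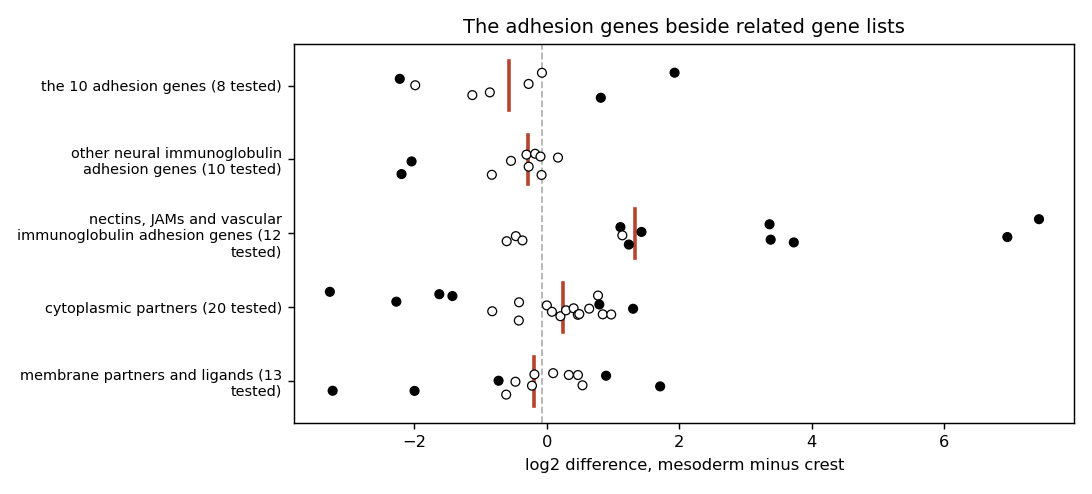
Log2 difference, mesoderm minus crest (x axis), of each tested gene among the 10 adhesion genes and in each of 4 related lists, filled where the adjusted p was under 0.05. Red bars are medians, from -0.57 for the 8 tested adhesion genes to 1.34 for nectins and vascular genes, and the dashed line is the median of all genes at -0.07.

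The genes whose centred log2 profiles over the 6 arrays lay nearest were found for each tested member, as a description. Genes with a like difference between the groups lie near each other by this measure. For Nrcam they were Ppm1e, Cmtm5 and Foxa1, at root mean square distances of 0.09 to 0.15 log2 units. For Alcam they were Scn4b, B3galt6 and Ahnak (0.16 to 0.19), and for Mcam they were Snai2, Arhgap23 and Rap1b (0.08 to 0.12). For Cntn2 the nearest was B3galnt1, at 0.64. Profiles were not scaled, so distances grow with a gene's own spread, and that of Cntn2 was wide.

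**Figure D5:**
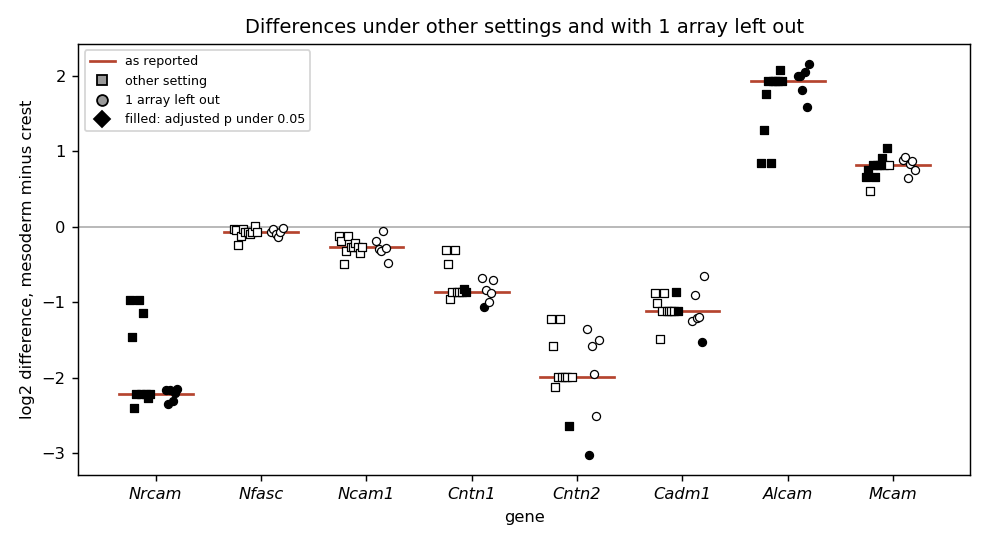
Log2 difference, mesoderm minus crest (y axis), of the 8 tested genes as reported (red bars), under other settings (squares) and with 1 array left out (circles), filled where the adjusted p was under 0.05. The setting that took its background from the deposited detection p-values is not drawn. Nrcam and Alcam stay filled throughout, and every circle of Mcam is open.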

How the data were processed

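Labelled cRNA was hybridized to Illumina mouse whole-genome arrays, per the labels' protocols. The 6 arrays share 1 BeadChip, crest at the first 3 positions and mesoderm at the last 3, so position and cell type cannot be told apart. The deposited table gives a linear signal intensity for 45281 probes and a detection p-value beside it. In 27.1% of probes, 13 of the 29 used here among them, the deposited p-value did not go with the signal on its line. For 12 of the 13 it went with another probe of the same gene and for 1, ILMN_1240336 of Nrcam, with an unnamed neighbour (to within 0.0043). Detection was therefore re-read as a running median of p over 101 probes ranked by signal. The authors' deposited log2 values equalled quantile-normalized log2 signals to within 0.00571 and were an alternative.

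Signals were background-corrected (normexp, offset 16), quantile-normalized and log2-transformed with limma 3.58.1 in R 4.3.3. A probe with 1 symbol was kept when detected on at least 3 arrays (13057 probes), and a gene was its brightest kept probe. limma's linear model compared the groups, two-sided, and was tested on simulated data. Probes are named by the supplied platform table. A fold bound sets each array of the undetected group at its lowest detected level, or at its own value where higher. It carries no sampling error and depends on the background correction. All list genes that were tested entered the counts, and the 3 largest called differences each way were named. Members and lists were chosen with earlier results of these data known. Across probes, log2 values correlated (Pearson's r) at 0.978 to 0.991 among crest, 0.970 to 0.981 among mesoderm and 0.927 to 0.963 between groups. Replicates were isolated separately, per the series design, with litter and day not given in the sources used here, and 3 arrays per group limit the precision.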

Additional observations from a re-analysis of the deposited data

How the results depend on the processing

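Leaving aside the setting with deposited detection p-values, Nrcam and Alcam kept their direction and call under every alternative that tested them. Nrcam and Alcam were not tested when detection on all 6 arrays was required, nor were Cntn1 and Cntn2, which left member counts of 0 toward crest and 1 toward mesoderm and 445 and 523 over all genes, as fewer genes enter. The deposited p-values gave no usable background: the interquartile range of all differences shrank from 0.79 to 0.000871. There Nrcam was at -0.000633 and still called, while Alcam at 0.000561 and Mcam at 0.00122 were past no threshold. Toward mesoderm 0 members were called, and over all genes 172 were called toward crest and 231 toward mesoderm. Used in the filter only, a setting chosen after seeing the data, those p-values changed no member's call. Median scaling gave 0.47 for Mcam, 1 member and 596 genes toward mesoderm and 725 genes toward crest. Array weights, which favoured crest replicate 3, gave 4 members and 1470 genes toward crest, with Cntn1 at -0.83, Cntn2 at -2.64 and Cadm1 at -0.87 now called and Nfasc at 0.012, its sign turned. With the replicate number as a block, Cntn1 (-0.86) and Cadm1 (-1.12) passed and Mcam (0.82) did not, giving 3 members toward crest and 1 toward mesoderm. Same-numbered arrays deviated together with r = 0.12, 0.32 and 0.02, against -0.33 to 0.21 for arrays of different numbers. These few values do not settle whether the arrays were paired. The numbers were not taken as pairs in the main fit. With 1 array left out, and the filter kept from all 6 arrays, the members called were 1 to 3 toward crest and 1 to 1 toward mesoderm. Over all genes the counts were 330 to 810 and 639 to 949. Differences then ran from -1.06 to -0.68 for Cntn1, -3.03 to -1.35 for Cntn2, -1.52 to -0.65 for Cadm1 and 0.65 to 0.92 for Mcam. The cause of these changes was not tested. Genes near background, such as Cntn1 and crest Alcam, have differences that depend on the background correction.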

Other observations

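Without the filter on dim probes, L1cam and Chl1 also entered the fit. Their differences were 0.28 ± 0.15 and 0.30 ± 0.13 on the log2 scale (SE, 3 arrays per group, limma adjusted p = 0.385 and 0.303), read from probes that were detected on no array.

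The exchanged detection p-values among the adhesion genes were confined, by the lines traced, to genes with several probes: 4 lines of Chl1, 3 of Ncam1, 3 of Nfasc, 2 of Cntn2 and 1 of Nrcam. L1cam, Cntn1, Alcam and Cadm1, with 1 probe each, and Mcam, with 3, had p-values that went with their signals.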
